A study of Homo sapiens and Mus musculus with 24 samples.

Results

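The genes described here are 47 human genes of TNF and NF-κB signalling together with NF-κB-dependent chemokines. They were taken as a list of names, drawn up with earlier results of these data known, from 58051 gene identifiers of the human counts, and 44 of them had a mouse gene of the same name among 29307 identifiers. CXCL8, IL32 and TNFRSF10A had no mouse gene of that name. By role, the 47 were 6 receptors, 9 adaptors or ubiquitin ligases, 9 kinases or kinase subunits, 4 IκB family genes, 5 NF-κB subunits, 2 negative feedback genes, 5 chemokines and 7 other targets or effectors. RNA-seq was made of Caco-2, a human colorectal adenocarcinoma cell line, and of purified colonic epithelial cells of mice. The Caco-2 libraries were 4 of the parental line (WT), 4 of ΔDNMT3A, which is 1 clone made with CRISPR/Cas9, 3 of DNMT3A1 and 4 of DNMT3A2. Each of these last lines was a clone grown from ΔDNMT3A, so both carried its deletion, after piggyBac insertion of a TY1-tagged isoform under a CMV promoter and growth in puromycin. The mouse groups were 4 Dnmt3a fl/fl and 4 Dnmt3a ΔIEC mice, 12 weeks old and in steady state. Both had a stretch of Dnmt3a exons floxed, and Dnmt3a ΔIEC had Villin-Cre, which acts in the epithelium. The floxed line was on a C57BL/6J background, and the Cre line crossed to it was on C57BL/6JxSJL/J. The study states that mice of both sexes were used at baseline. The DNMT3A1 library numbered 3 was not analysed here. No cytokine treatment is named for any library, and nothing says that the Caco-2 replicates were separate cultures, so their p-values measure the spread between these libraries, which may be technical.

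In resting cells, dimers of the NF-κB subunits are held in the cytoplasm by IκB proteins. Ligands of the TNF receptor family gather adaptors, TRAF ubiquitin ligases and the kinase RIPK1 at the receptor. The TAK1 complex (MAP3K7 with TAB1 and TAB2) then activates the IκB kinase (IKBKB, CHUK and IKBKG), IκB is destroyed, and RELA with NFKB1 enters the nucleus. A slower branch, kept off by TRAF2, TRAF3, BIRC2 and BIRC3, processes the NFKB2 product, which pairs with RELB. Many pathway genes are targets of NF-κB themselves, among them the inhibitor NFKBIA, the deubiquitinase gene TNFAIP3 (A20) and BIRC3, and intestinal epithelium uses the pathway to recruit leukocytes through chemokines such as CXCL8 and CCL20.

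Depth was 22104408 to 42161299 reads on genes in the 15 Caco-2 libraries and 16943626 to 24921248 in the 8 mouse libraries. Levels are given as CPM, the usual depth-scaled count, on scaled library sizes. In WT, DNMT3A had 64.6 ± 2.27 CPM, and ΔDNMT3A had 20.7 ± 1.22 (SD, n = 4 each). DNMT3A1 libraries had 38.02 ± 1.23 CPM (SD, n = 3). It was at 21.9 ± 1.40 CPM (SD, n = 4) in the libraries labelled DNMT3A2, a log2 difference of 0.07 from ΔDNMT3A (adjusted p = 0.272). The study checked re-expression by immunoblot, which was not analysed here, and whether the inserted sequence falls in the counted gene model is not given in the sources used here. Since the gene's count did not tell these libraries from ΔDNMT3A, they are called DNMT3A2-labelled below. Mouse Dnmt3a, counted over all exons, was at 93.9 ± 7.70 CPM in Dnmt3a fl/fl and 46.1 ± 3.30 in Dnmt3a ΔIEC (SD, n = 4 each). Of 19 leukocyte markers, 8 to 14 were at 0 in each Caco-2 library, and the pan-leukocyte gene PTPRC had at most 1 read. Their summed level was 6.09 to 6.92 CPM in WT and 19.8 to 23.2 in ΔDNMT3A, of which CSF1R, the receptor for CSF1, made up 4.85 ± 0.258 and 17.7 ± 1.52 CPM (SD, n = 4 each). Epithelial markers summed to 9849 to 10112 CPM in WT, 12366 to 13029 in ΔDNMT3A, 10325 to 10545 in DNMT3A1 and 8692 to 8962 in the DNMT3A2-labelled libraries. The 4 lines did not overlap in this sum, and its part in the results below was not tested. In mouse libraries the leukocyte sum was 7.83 to 13.4 CPM in Dnmt3a fl/fl and 11.5 to 12.9 in Dnmt3a ΔIEC, against epithelial sums of 17831 to 25704.

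The binding site of NF-κB, the κB consensus, was searched on both strands in RefSeq promoters of GRCh38.p14, from 250 bases before to 50 after each start site. It was found in 14 of 37 member promoters (37.8%) and in 1562 of 27305 promoters in all (5.72%). The wider list of pathway genes described below had it in 16 of 83 (19.3%). Since the members include genes listed as NF-κB-dependent, their higher share follows in part from how the list was made. The form searched was GGGRNWYYCC, where R is A or G, N any base, W A or T and Y C or T. CXCL8, ICAM1 and NFKB2 had no match to this form in this stretch. A site that departs from the form would not have been found. Of the 14 member promoters with a match, 12 are shown to set beside the levels that follow, and those of TRAF3 and MAPK14 were left out. For NFKB1, REL, TNFAIP3, CFLAR, IL32, CXCL2 and CXCL3 the counted gene model begins upstream of the RefSeq start and overlaps the stretch shown. Capitals mark the match or overlapping pair of matches, read on the strand of the gene.
NFKB1, chr4:102501300-102501329, plus strand: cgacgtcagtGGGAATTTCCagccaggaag
REL, chr2:60881518-60881546, plus strand: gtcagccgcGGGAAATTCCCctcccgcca
NFKBIA, chr14:35404796-35404855, minus strand: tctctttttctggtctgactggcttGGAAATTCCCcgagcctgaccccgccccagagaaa
NFKBIZ, chr3:101827742-101827801, plus strand: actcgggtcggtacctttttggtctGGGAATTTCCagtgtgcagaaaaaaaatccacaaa
TNFAIP3, chr6:137867188-137867217, plus strand: ctttGGAAAGTCCCgtGGAAATCCCCgggc
BIRC3, chr11:102317260-102317383, plus strand: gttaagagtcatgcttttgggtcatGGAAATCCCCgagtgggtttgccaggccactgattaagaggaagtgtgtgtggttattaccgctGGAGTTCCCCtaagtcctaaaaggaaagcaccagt
CFLAR, chr2:201118609-201118638, plus strand: cgcggggggcGGGGAATTCCgcagacagga
IL32, chr16:3065295-3065323, plus strand: ctgtactcaGGGAGTTTCCCcagccagct
CXCL1, chr4:73869289-73869349, plus strand: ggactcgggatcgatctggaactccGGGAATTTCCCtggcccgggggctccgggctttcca
CXCL2, chr4:74099254-74099282, minus strand: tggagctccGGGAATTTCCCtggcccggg
CXCL3, chr4:74038749-74038777, minus strand: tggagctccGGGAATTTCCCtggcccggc
CCL20, chr2:227813738-227813797, plus strand: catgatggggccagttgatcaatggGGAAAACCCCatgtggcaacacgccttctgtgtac

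TNFAIP3 and BIRC3 each held 2 separate matches. In the CXCL genes, IL32 and REL the match was nearly palindromic, so that it was read on both strands and counted once per strand. The 61 bases around the match were 93.4% identical between CXCL1 and CXCL3, 80.3% between CXCL1 and CXCL2 and 78.7% between CXCL2 and CXCL3, compared without gaps. A match is a string of letters and no measurement of binding.

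**Figure D1:**
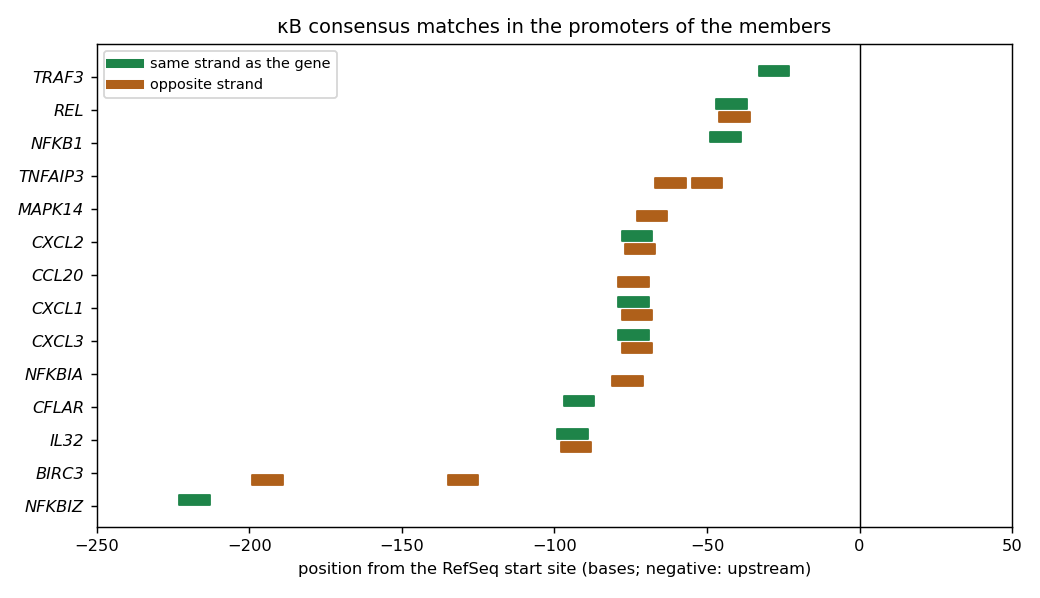
Positions of the κB consensus in the 14 member promoters that hold it, in bases from the RefSeq start site, with matches on the gene's strand in green and on the opposite strand in brown. The matches of NFKBIZ, BIRC3, IL32 and CFLAR begin farthest upstream, between -223 and -97, and those of TRAF3, REL and NFKB1 nearest, from -49 on.

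Whether loss of DNMT3A went with a changed pathway was asked by comparing ΔDNMT3A with WT. More members rose than fell. The largest increases were those of BIRC3, HYAL1 and TNFAIP3, the largest decreases those of the chemokine genes CXCL3 and CXCL2, and the 3 IκB kinase genes were not called. Of 45 members tested, 32 passed an adjusted p of 0.05, 25 of them higher and 7 lower in ΔDNMT3A. In the same comparison 62.2% of 16654 genes passed, 31.2% higher and 31.0% lower, so the number of members called was not far from the background while their split was not even. Among the 25 were HYAL1, MAPK14, TNFRSF1B, TRADD and TNFRSF12A, which the study itself listed from these libraries, so the split is not independent evidence of a direction. The median log2 fold change was 0.16 over the members and -0.0049 over all genes. A log2 fold change of at least 0.5 was reached by 11 members, and by 21.9% of all genes. The libraries of the 2 lines did not overlap for 30 of the 45 members, as for 55.4% of all genes. CXCL1 and CXCL8 were not tested, with 8 and 13 reads over all 15 libraries.

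Against ΔDNMT3A, the balance was the opposite in both isoform lines. In DNMT3A1, 34 of 44 members tested were called, 9 higher and 25 lower, where 60.7% of all genes were called, 30.4% higher and 30.3% lower, and the member median was -0.17. In the DNMT3A2-labelled libraries, 33 of 45 were called, 9 higher and 24 lower, where 67.9% of all genes were called, 33.8% higher and 34.1% lower, and the median was -0.11. These comparisons share the ΔDNMT3A libraries with the first, so a library level that is high in ΔDNMT3A enters all 3. Against WT, which has its own libraries, the directions were near even. In DNMT3A1, 33 of 45 were called (16 higher, 17 lower, against 65.3% of all genes, 32.6% higher and 32.7% lower). The DNMT3A2-labelled libraries had 28 of 45 called (13 higher, 15 lower, against 68.7% of all genes, 34.3% higher and 34.4% lower). Between the isoform lines 37 of 45 were called, 19 higher in DNMT3A1 and 18 lower, against 68.5% of all genes (34.5% higher, 33.9% lower).

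The same was counted by the size of the change and by whether the libraries of the lines compared were separate. Called with a log2 fold change of at least 0.5 were 11 of 44 members in DNMT3A1 and 12 of 45 in the DNMT3A2-labelled libraries against ΔDNMT3A, where 23.0% and 28.2% of all genes were. Against WT it was 11 of 45 in each isoform line (28.5% and 27.2% of all genes), and between the isoform lines 16 of 45 (32.4%). Libraries did not overlap for 34 members in DNMT3A1 and 31 in the DNMT3A2-labelled libraries against ΔDNMT3A (59.8% and 61.4% of all genes). Against WT these were 35 and 23 members (63.4% and 62.2%), and between the isoform lines 34 (66.6%).

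**Figure D2:**
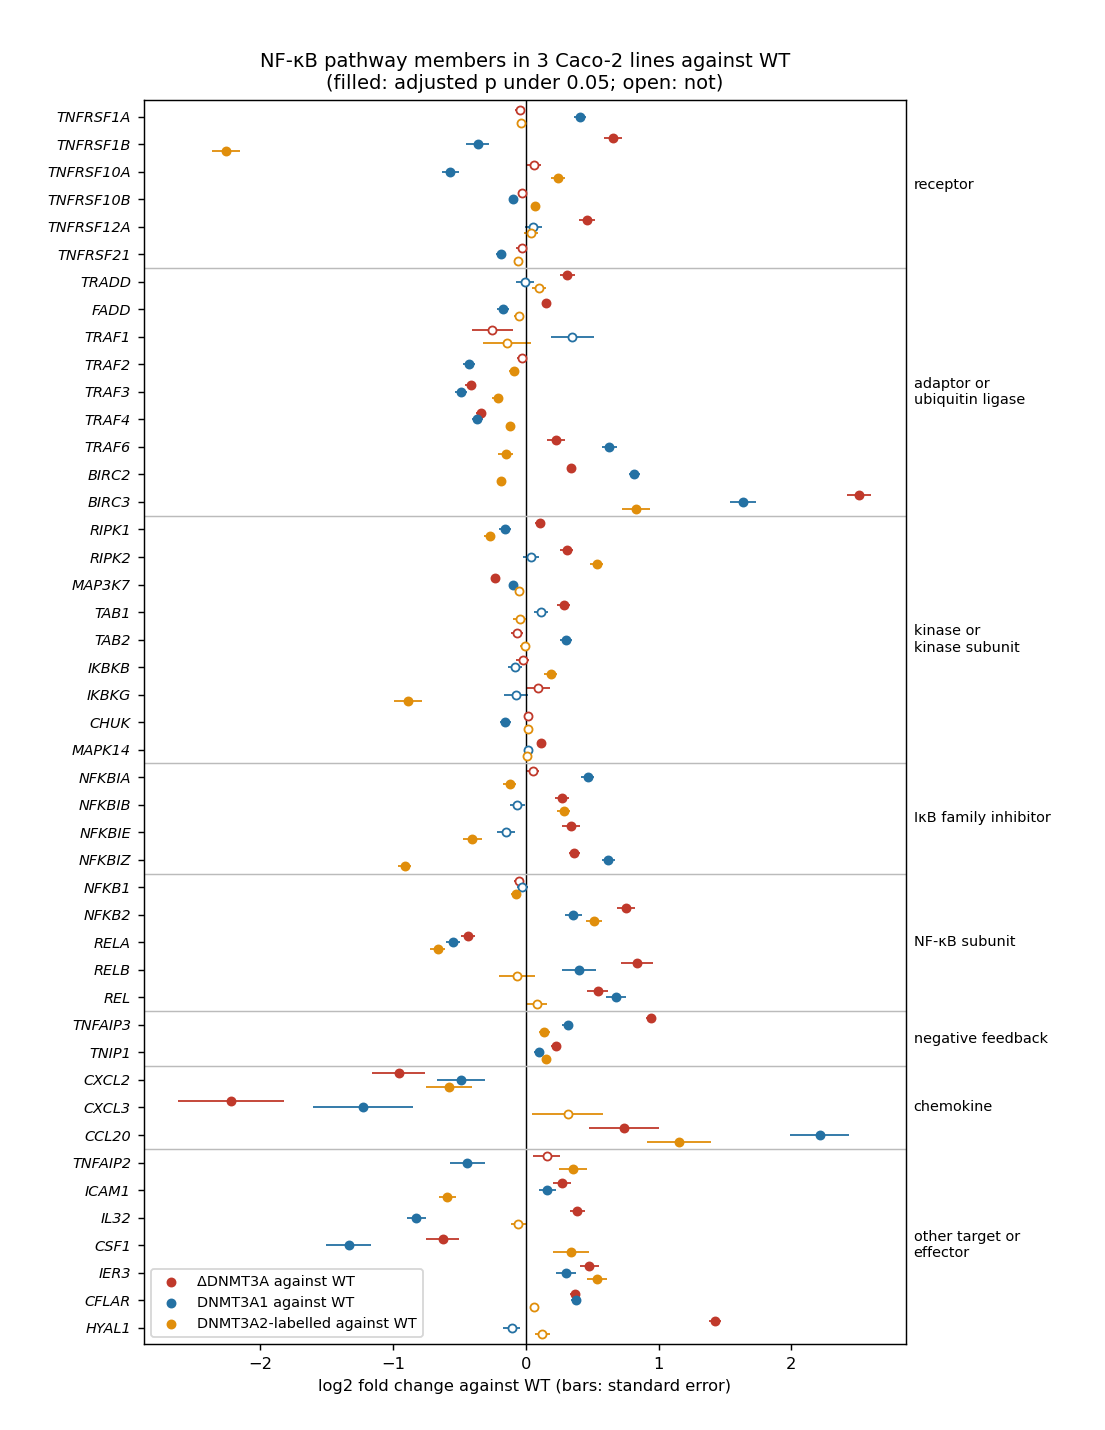
Log2 fold change of each tested member against WT (horizontal axis, bars for the standard error) in ΔDNMT3A (red), DNMT3A1 (blue) and the DNMT3A2-labelled libraries (orange), grouped by role, with filled points for an adjusted p under 0.05. The red points lie mostly right of 0, with BIRC3 at 2.51 and HYAL1 at 1.42, and CXCL3 at -2.22 on the left.

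Receptors. TNFRSF1B (TNFR2, chromosome 1, 12166943 to 12209228 of GRCh38), the second TNF receptor, which lacks a death domain, had the largest change of the 6 receptor genes in ΔDNMT3A and in each isoform line against it. It was at 8.07, 8.01, 8.23 and 8.62 CPM in WT and at 12.5, 12.8, 14.7 and 12.5 in ΔDNMT3A. In DNMT3A1 it was at 7.06, 6.55 and 5.75 CPM and in the DNMT3A2-labelled libraries at 1.54, 1.75, 1.59 and 2.04. No library of one line reached into the range of another, with ΔDNMT3A highest and the DNMT3A2-labelled libraries lowest. The log2 fold change was 0.65 for ΔDNMT3A against WT (standard error 0.0687, adjusted p = 1.17e-08), -1.03 for DNMT3A1 against ΔDNMT3A (0.0847, 2.34e-09) and -2.91 for the DNMT3A2-labelled libraries (0.0989, 1.23e-17). Against WT the latter were also lower, by -2.26 on the log2 scale (standard error 0.103, adjusted p = 4.59e-18). TNFRSF12A, the receptor for TWEAK, rose from 20.7 to 28.8 CPM in ΔDNMT3A (log2 fold change 0.46, adjusted p = 7.56e-07) and was at 21.6 CPM in each isoform line. TNFRSF1A, the main TNF receptor with a death domain, was at 43.7 CPM in WT and 42.9 in ΔDNMT3A (log2 fold change -0.04, adjusted p = 0.363) but rose in DNMT3A1 to 58.1 CPM, 0.44 above ΔDNMT3A (adjusted p = 1.8e-07). The TRAIL receptor genes TNFRSF10A and TNFRSF10B and the death receptor gene TNFRSF21 were not called in ΔDNMT3A (log2 fold changes 0.06, -0.03 and -0.03). TNFRSF10A parted between the isoform lines, at 12.02 to 12.4 CPM in DNMT3A1 and 21.3 to 22.4 in the DNMT3A2-labelled libraries.

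Adaptors and ubiquitin ligases. BIRC3 (cIAP2, chromosome 11, 102317450 to 102339403), a ubiquitin ligase that acts with TRAF2 at TNF receptors, had the largest increase of all members in ΔDNMT3A. It was at 3.08, 2.32, 2.65 and 2.80 CPM in WT and at 16.4, 17.5, 14.6 and 14.1 in ΔDNMT3A. The DNMT3A1 libraries had 8.44, 8.62 and 8.42 CPM and the DNMT3A2-labelled ones 4.98, 4.98, 5.13 and 4.57. The 4 lines did not overlap, and both isoform lines lay between WT and ΔDNMT3A. BIRC3 was 5.70-fold higher in ΔDNMT3A than in WT (log2 fold change 2.51, standard error 0.0925, adjusted p = 4.16e-17). It then fell by 0.89 in DNMT3A1 (standard error 0.0774, adjusted p = 5.2e-09) and by 1.68 in the DNMT3A2-labelled libraries (0.0814, 1.01e-14) on the log2 scale. Both remained above WT, by 1.63 and 0.83 on the same scale. The 50 tested neighbours of BIRC3 had medians of 0.82 and 0.03 in the same comparisons. In DNMT3A1 against WT, 45 of them were higher and 0 lower, and their part in the BIRC3 value was not tested.

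BIRC2 (cIAP1), the paralogous ligase gene next to it on chromosome 11, had 106 to 116 CPM in WT and 136 to 150.1 in ΔDNMT3A. Among the isoform lines it had 184 to 207 CPM in DNMT3A1 and 94.5 to 102 in the DNMT3A2-labelled libraries. Its order was thus not that of BIRC3: it was highest in DNMT3A1 and lowest in the DNMT3A2-labelled libraries, with no overlap. The log2 fold change was 0.34 in ΔDNMT3A against WT, and 0.47 and -0.53 in the isoform lines against ΔDNMT3A (adjusted p = 5.81e-09, 3.72e-09 and 9.29e-13). TRAF6, the ligase that serves interleukin-1 and Toll-like receptors, followed the same order, with 23.1 CPM in DNMT3A1, 17.6 in ΔDNMT3A, 14.9 in WT and 13.5 in the DNMT3A2-labelled libraries. The death domain adaptors TRADD and FADD were higher in ΔDNMT3A by 0.31 and 0.15 on the log2 scale and lower in both isoform lines. TRAF3, which restrains the NFKB2 branch, and TRAF4 fell in ΔDNMT3A, by 0.41 and 0.34 on that scale (adjusted p = 8.8e-09 and 4.44e-08). TRAF2 was not called in ΔDNMT3A (-0.03) and was lower in DNMT3A1, by -0.40 against ΔDNMT3A. TRAF1, with 1.55 CPM in WT, was not called (-0.25, adjusted p = 0.157).

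Kinases. The 9 kinase genes and subunits moved little in ΔDNMT3A. None reached a log2 fold change of 0.5, 4 rose, MAP3K7 fell, and 4 were not called. RIPK2, the kinase downstream of NOD receptors, and TAB1 rose by 0.31 and 0.29 on the log2 scale, and RIPK1 and MAPK14 (p38α) by 0.11 and 0.12. MAP3K7, which encodes TAK1, fell from 96.7 ± 1.51 to 83.2 ± 1.25 CPM (SD, n = 4 each). The IκB kinase genes IKBKB, CHUK and IKBKG had log2 fold changes of -0.02, 0.02 and 0.09, none called. In the DNMT3A2-labelled libraries IKBKG, whose product is the regulatory subunit NEMO, was at 3.04, 3.55, 3.40 and 2.46 CPM. WT had 5.26, 5.76, 5.58 and 5.94 CPM and ΔDNMT3A 6.93, 6.25, 5.88 and 4.98. All 4 DNMT3A2-labelled libraries lay below every other, and their difference from ΔDNMT3A was -0.98 on the log2 scale (standard error 0.119, adjusted p = 1.21e-07). IKBKG has a near-identical pseudogene copy, so its counts are uncertain. All 36 of its tested neighbours on chromosome X were also lower in these libraries, with a median of -1.01.

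IκB family. NFKBIA, the IκBα gene and a classical readout of canonical NF-κB activity, was not called in ΔDNMT3A. It was at 22.3, 23.8, 22.6 and 22.7 CPM in WT and at 23.3, 23.8, 23.7 and 24.7 in ΔDNMT3A (log2 fold change 0.05, adjusted p = 0.325), and the groups overlapped. In DNMT3A1 it rose to 31.3 to 32.0 CPM, by 0.41 against ΔDNMT3A (adjusted p = 2.19e-07). There its 50 neighbours on chromosome 14 had a median of 0.64, with 42 of 50 higher. The other 3 genes of the family rose in ΔDNMT3A by 0.28 (NFKBIB), 0.34 (NFKBIE) and 0.37 (NFKBIZ) on the log2 scale.

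NFKBIZ (IκBζ, chromosome 3, 101827991 to 101861022), a nuclear IκB protein that helps NF-κB to turn on a part of its targets, rose further in DNMT3A1 and fell in the DNMT3A2-labelled libraries. It was at 26.7, 26.5, 28.2 and 26.6 CPM in WT and at 34.9, 34.3, 34.1 and 37.0 in ΔDNMT3A. DNMT3A1 had 40.9, 43.8 and 40.3 CPM and the DNMT3A2-labelled libraries 14.5, 15.6, 13.9 and 14.1. The 4 lines did not overlap. DNMT3A1 exceeded ΔDNMT3A by 0.25 on the log2 scale (standard error 0.0486, adjusted p = 0.000176), whereas the DNMT3A2-labelled libraries differed from it by -1.28 (0.0519, 3.66e-16). The isoform lines differed by 1.52 (0.0522, 8.13e-19). NFKBIE (IκBε) was lower than ΔDNMT3A in both, by -0.50 and -0.75.

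NF-κB subunits. The genes of the NFKB2 branch rose in ΔDNMT3A, REL rose as well, RELA fell and NFKB1 was not called. NFKB2 (p100/p52, chromosome 10, 102394110 to 102402529) was at 13.5, 12.6, 13.8 and 12.3 CPM in WT and at 24.7, 23.2, 20.8 and 19.6 in ΔDNMT3A. All ΔDNMT3A libraries lay above all WT libraries, by 0.76 on the log2 scale (standard error 0.0681, adjusted p = 8.73e-10). It stayed above WT in both isoform lines, by 0.36 and 0.51, at 16.8 and 18.8 CPM. RELB, its partner, was at 2.75, 2.18, 2.42 and 2.86 CPM in WT and at 4.87, 5.54, 4.29 and 3.72 in ΔDNMT3A, again without overlap (0.84, standard error 0.122, adjusted p = 2.02e-06). RELB was at 3.40 CPM in DNMT3A1 and, at 2.47 CPM, not different by the test from WT in the DNMT3A2-labelled libraries (-0.07, adjusted p = 0.677). A log2 difference of that size with a standard error of 0.134 does not show that the levels were equal.

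RELA (p65), the main activating subunit of the canonical branch, fell from 21.4 to 23.6 CPM in WT to 15.6 to 17.9 in ΔDNMT3A, with no overlap (log2 fold change -0.43, standard error 0.0547, adjusted p = 2.33e-07). It was no higher in the isoform lines, at 15.5 and 14.5 CPM, and stayed below WT by -0.55 and -0.66. The 50 tested neighbours of RELA on chromosome 11 were also lower against WT. Their medians were -0.15 in ΔDNMT3A, -0.27 in DNMT3A1 and -0.23 in the DNMT3A2-labelled libraries. NFKB1 was at 48.1 to 51 CPM in WT and 45.03 to 50.4 in ΔDNMT3A (-0.05, adjusted p = 0.285). REL (c-Rel) was at 9.74, 9.75, 8.30 and 10.03 CPM in WT and at 12.8, 15.2, 12.4 and 15.2 in ΔDNMT3A (0.54, standard error 0.0789, adjusted p = 2.02e-06). Its 50 tested neighbours on chromosome 2 had a median of 0.57, 41 of them higher and none lower, so REL changed as much as the genes around it. Of REL's exon length, 50.7% is also annotated to another gene of the same strand, whose reads could not be told apart by the counting.

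Negative feedback. TNFAIP3 (A20, chromosome 6, 137867188 to 137883312), which removes ubiquitin from RIPK1 and ends the signal, rose in ΔDNMT3A and came most of the way back in both isoform lines. It was at 31.9, 34.5, 33.98 and 33.7 CPM in WT and at 66.4, 66.3, 60.9 and 65.2 in ΔDNMT3A. In DNMT3A1 it was at 41.2, 41.8 and 42.2 CPM and in the DNMT3A2-labelled libraries at 37.5, 35.1, 38.7 and 37.7. No lines overlapped. The log2 fold change was 0.94 in ΔDNMT3A against WT (standard error 0.0387, adjusted p = 3.34e-16), -0.63 in DNMT3A1 and -0.80 in the DNMT3A2-labelled libraries against ΔDNMT3A (adjusted p = 1.91e-10 and 6.88e-15). Both stayed above WT, by 0.31 and 0.14 (adjusted p = 8.75e-07 and 0.00393). TNIP1, whose product binds A20, moved in the same directions by less, 0.23, -0.13 and -0.07.

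Chemokines. Levels were low in every Caco-2 line, and the chemokines did not move together: CXCL2 and CXCL3 fell in ΔDNMT3A while CCL20 was higher. CXCL1 and CXCL8, which attract neutrophils, had at most 2 and 3 reads in any library, so no fold change is given. CXCL3 (chromosome 4, 74036589 to 74038807) had 20, 22, 17 and 14 reads in WT and 4, 7, 1 and 4 in ΔDNMT3A. DNMT3A1 had 6, 4 and 12 reads and the DNMT3A2-labelled libraries 18, 13, 18 and 26. ΔDNMT3A lay below WT in every library, by -2.22 on the log2 scale (standard error 0.396, adjusted p = 3.31e-05), and the DNMT3A2-labelled libraries overlapped WT and were 2.53 above ΔDNMT3A (0.361, 1.45e-06). CXCL2 was at 1.61, 1.78, 1.63 and 1.42 CPM in WT and at 0.478, 0.977, 0.980 and 0.964 in ΔDNMT3A, the lowest of which was replicate 1 (log2 fold change -0.96, standard error 0.200, adjusted p = 0.000212). It stayed below WT in both isoform lines, at 1.14 and 1.07 CPM. CXCL1, CXCL2 and CXCL3 are closely related genes, and the count headers show no option that keeps reads with several places.

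CCL20 (chromosome 2, 227813842 to 227817564), which attracts CCR6-bearing T and dendritic cells, was at 0.448, 0.580, 0.638 and 0.412 CPM in WT. It was at 1.15, 0.918, 0.845 and 0.465 CPM in ΔDNMT3A, where replicate 4 lay within the WT range. The increase was 0.74 on the log2 scale (standard error 0.264, adjusted p = 0.018). It missed the threshold without WT replicate 1, WT replicate 4 or ΔDNMT3A replicate 1, at 0.68, 0.63 and 0.53 (adjusted p = 0.0515, 0.0646 and 0.114). In DNMT3A1 CCL20 was at 2.43, 2.99 and 1.86 CPM and in the DNMT3A2-labelled libraries at 1.11, 1.43, 1.27 and 0.875. Every isoform-line library lay above WT, by 2.21 (0.221, 2.31e-09) and 1.15 (0.240, 9.84e-05) on the log2 scale. DNMT3A1 was also above ΔDNMT3A, by 1.46 (adjusted p = 1.52e-05).

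Other targets and effectors. HYAL1 (chromosome 3, 50299889 to 50312381), which encodes a hyaluronidase, was at 17.2, 15.8, 17.9 and 17.5 CPM in WT and at 45.5, 44.7, 48.2 and 47.1 in ΔDNMT3A. It was at 16.5, 14.6 and 16.7 CPM in DNMT3A1 and at 18.9, 17.7, 18.02 and 20.7 in the DNMT3A2-labelled libraries. ΔDNMT3A stood alone above the 3 other lines. HYAL1 was 2.68-fold higher than in WT (log2 fold change 1.42, standard error 0.0459, adjusted p = 3.16e-18) and neither isoform line differed from WT by the test (-0.10 and 0.12, adjusted p = 0.155 and 0.0541). The neighbours of HYAL1 went the other way in ΔDNMT3A, with a median of -0.29 and 34 of 50 lower.

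IL32, an inflammatory cytokine gene, was at 17.99, 16.02, 18.1 and 16.6 CPM in WT and at 23.4, 23.7, 22.9 and 20.6 in ΔDNMT3A. In DNMT3A1 it was at 9.53, 9.04 and 10.5 CPM and in the DNMT3A2-labelled libraries at 16.8, 17.7, 16.3 and 16.1. DNMT3A1 lay below every other line, -1.22 against ΔDNMT3A (standard error 0.0667, adjusted p = 4.87e-12) and -0.82 against WT, while the DNMT3A2-labelled libraries overlapped WT.

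CSF1, the macrophage growth factor gene, was at 3.02, 2.94, 2.58 and 3.19 CPM in WT and at 1.67, 2.04, 1.96 and 2.06 in ΔDNMT3A (log2 fold change -0.63, standard error 0.122, adjusted p = 9.28e-05). It fell further in DNMT3A1, to 1.08, 1.53 and 0.958 CPM, and rose in the DNMT3A2-labelled libraries to 4.98, 2.68, 3.51 and 3.79. These isoform lines differed by -1.68 (DNMT3A1 against DNMT3A2-labelled, 0.197, 3.31e-08) with no overlap. The adhesion gene ICAM1 and the caspase-8 inhibitor gene CFLAR were higher in ΔDNMT3A by 0.27 and 0.37, and both were higher in DNMT3A1 than in the DNMT3A2-labelled libraries, by 0.74 and 0.30. The early response gene IER3 rose by 0.48 and stayed above WT in both lines. TNFAIP2 was not called in ΔDNMT3A (0.16, adjusted p = 0.176).

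**Figure D3:**
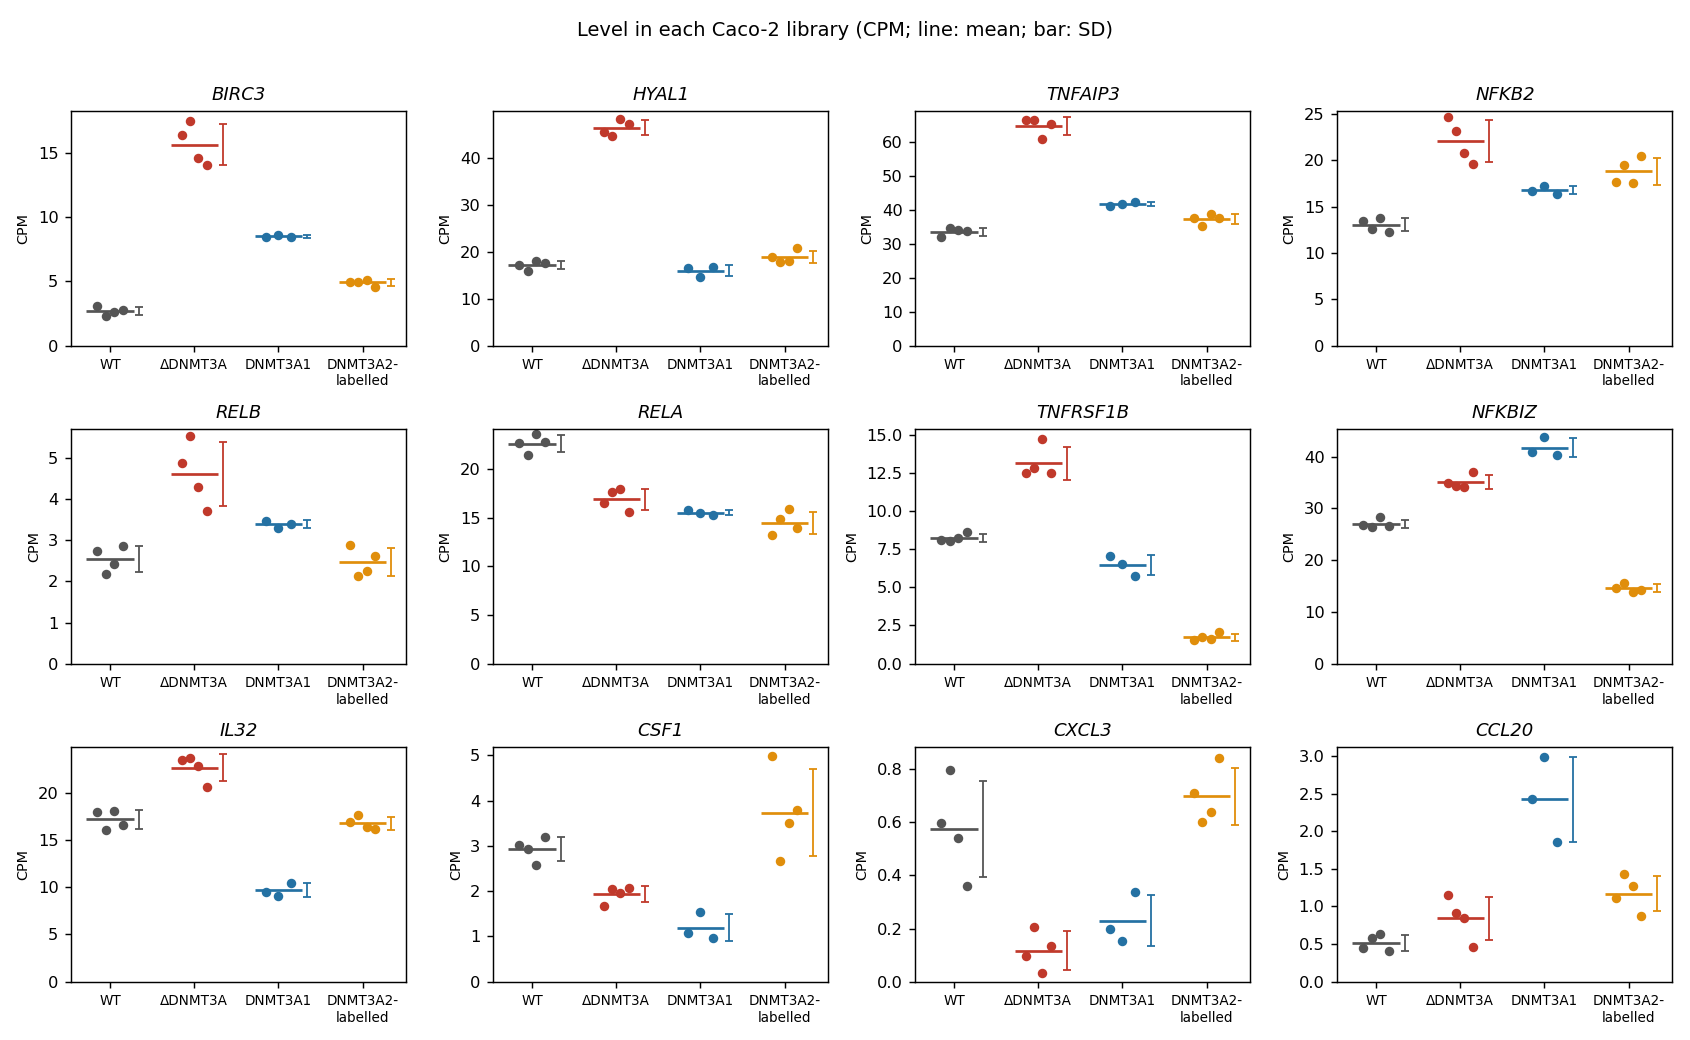
CPM in each library (points) of 12 members in WT, ΔDNMT3A, DNMT3A1 and the DNMT3A2-labelled libraries, each panel with its own axis from 0, with the mean as a line and the SD as a bar. HYAL1 and TNFAIP3 stand out in ΔDNMT3A alone, RELA is lower than WT in every other line, and NFKBIZ and CSF1 lie on opposite sides of ΔDNMT3A in the isoform lines.

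A gene was called restored in an isoform line when it was called in ΔDNMT3A, called in the opposite direction in the isoform line against ΔDNMT3A, and no longer called in the first direction against WT. Among the members, 10 were restored in both lines, and 10.9% of all genes tested were. All 10 had been higher in ΔDNMT3A, as had 938 of the 1818 genes restored in both lines. Of the 32 members called in ΔDNMT3A, 25 had been higher. This rule also takes in genes that went past WT, and 5 of the 10 were called below WT in at least 1 isoform line. Of the 1818 genes restored in both, 72.8% were likewise called past WT in at least 1 line. The 10 were the receptor genes TNFRSF1B and TNFRSF12A, the adaptor genes TRADD and FADD, RIPK1, TAB1, MAPK14, NFKBIE, IL32 and HYAL1. Below WT were TNFRSF1B (log2 fold changes -0.36 and -2.26) and RIPK1 (-0.16 and -0.27) in both lines, FADD (-0.17) and IL32 (-0.82) in DNMT3A1, and NFKBIE (-0.40) in the DNMT3A2-labelled libraries. As a share of genes called in ΔDNMT3A this was 31.2% of 32 members and 17.5% of 10367 genes. HYAL1, MAPK14, TNFRSF1B, TRADD and TNFRSF12A were listed by the study from these same libraries as restored genes of the response to TNF, so their part of this count is not independent evidence. With a difference between the lines required as well, NFKBIB and RIPK2 were restored in DNMT3A1 alone, where 9.51% of all genes were. In the DNMT3A2-labelled libraries alone 9 members were restored, NFKBIZ, RELB, REL, TRAF6, BIRC2, CXCL3, ICAM1, CSF1 and CFLAR, where 13.5% of all genes were. CXCL3 did not pass the low-count filter in DNMT3A1 against ΔDNMT3A, so the rule could not find it restored in DNMT3A1. The other 11 called members were placed in none of these groups. BIRC3, TNFAIP3, TNIP1 and NFKB2 among them were lower than ΔDNMT3A in both lines and still above WT, and RELA, TRAF3 and TRAF4 were still below WT.

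Of 44 members tested in all 3 comparisons, 8 were called in opposite directions in the isoform lines against ΔDNMT3A and also between these lines, as were 16.4% of 15986 genes, so the members were near the background. NFKBIA, NFKBIZ, TRAF6 and BIRC2 were higher than ΔDNMT3A in DNMT3A1 and lower in the DNMT3A2-labelled libraries. The reverse held for TNFRSF10A, TNFRSF10B, RIPK2 and CSF1.

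Because each line other than WT was a clone, every member was set beside the 50 nearest tested genes on its chromosome (fewer near a chromosome end). In ΔDNMT3A against WT, REL was the 1 member of 45 whose neighbours had a median past 0.5 in either direction. BIRC3 and BIRC2, 2.51 and 0.34, had neighbours with medians of 0.27 and 0.28, so BIRC2 changed about as they did. In DNMT3A1 against ΔDNMT3A the neighbours of NFKBIA, BIRC2 and BIRC3 were past 0.5, with medians of 0.64, 0.54 and 0.54. NFKBIA and BIRC2, at 0.41 and 0.47, rose by no more than their neighbours, and BIRC3 fell by 0.89 where 43 of its 50 neighbours were higher. In the DNMT3A2-labelled libraries IKBKG alone was past 0.5. The neighbours of TNFRSF1B, NFKBIZ, CXCL3 and CSF1 had medians of 0.01, -0.01, 0.01 and -0.03. For REL, BIRC2 and TRAF6, restored in these libraries alone, the neighbour medians were -0.26, -0.29 and -0.19. Of 50 neighbours each, 35, 32 and 29 were lower and 3, 7 and 13 higher. REL, BIRC2 and TRAF6 themselves changed by -0.46, -0.53 and -0.38. The part of these stretches in the members' values was not tested further.

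**Figure D4:**
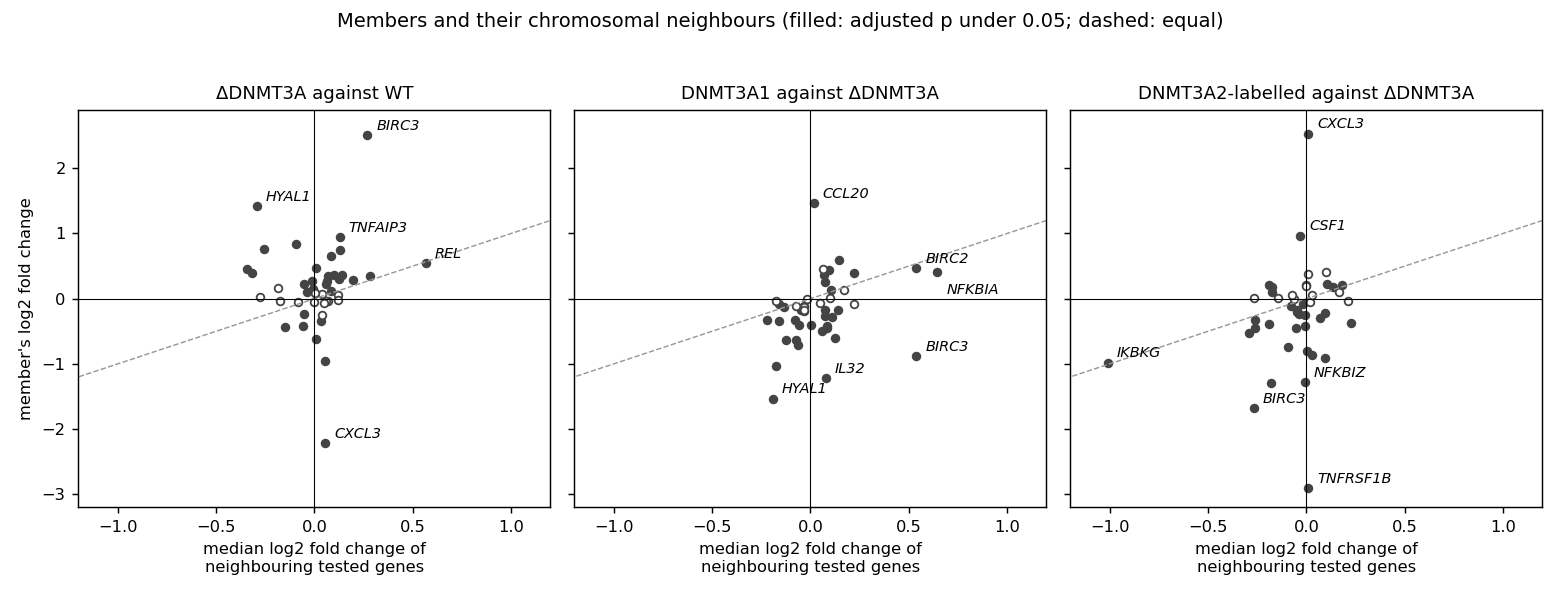
Log2 fold change of each member (vertical axis) against the median log2 fold change of its neighbouring tested genes (horizontal axis) in 3 comparisons, filled where the adjusted p was under 0.05, with a dashed line where the values are equal. REL, BIRC2, NFKBIA and IKBKG lie near the line far from 0, while BIRC3, HYAL1, TNFRSF1B and CXCL3 lie far from it.

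In WT, levels per kilobase of exon ran from 0.0235 CPM per kb for CXCL1 to 27.3 for FADD. The receptor genes TNFRSF21 and TNFRSF10B (22.5 and 20.5), BIRC2 (24.3) and MAPK14 (23.5) were among the highest on this scale. BIRC3 was at 0.361 CPM per kb, below all 5 NF-κB subunits, of which NFKB1 was highest (7.93) and REL and RELB lowest (0.840 and 0.841).

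A wider list of 103 pathway genes that are not members, 102 of them found in the human counts, moved to both sides in ΔDNMT3A against WT. Of 73 tested, 39 were higher and 21 lower, against 31.2% and 31.0% of all genes. By role, 9 of 15 further targets were higher and 5 lower, 8 of 12 further inhibitors or feedback genes were higher and 3 lower, and 8 of 13 further receptors were lower and 3 higher. Of 25 further adaptors, ligases or kinases, 13 were higher and 5 lower, and of 4 ligands and 4 death pathway genes 3 each were higher and 0 lower. The highest were TNFSF10, which encodes the death ligand TRAIL (log2 fold change 3.24, from 0.495 to 4.74 CPM), and CXCL10 (2.51) and CXCL11 (2.39), which are also interferon targets. The lowest were the monocyte chemokine gene CCL2 (-1.60, from 1.36 to 0.449 CPM), TNFRSF14 (-1.53) and IL1RAP (-1.17). TNF itself was at 0 in all WT and DNMT3A1 libraries and had at most 2 reads in any library of ΔDNMT3A. Against ΔDNMT3A, 23 rose and 39 fell of 76 tested in DNMT3A1, where 30.4% and 30.3% of all genes did. In the DNMT3A2-labelled libraries 23 rose and 37 fell of 76, where 33.8% and 34.1% of all genes did. CXCL10 had the lowest fitted value in both. It was at 1.64 ± 0.203 CPM in ΔDNMT3A (SD, n = 4) and 0.175 ± 0.0145 in DNMT3A1 (SD, n = 3), with at most 1 read in any DNMT3A2-labelled library.

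In mouse colonic epithelium the pathway was asked about in vivo, without stimulation. No member was called in Dnmt3a ΔIEC against Dnmt3a fl/fl by edgeR's quasi-likelihood test, of 43 tested, where 0.691% of 14626 genes were called (88 or 0.602% higher, 13 or 0.0889% lower). At an unadjusted p under 0.05 there were 5 members, and 2058 of 14626 genes. The member median was -0.01 and the range -1.13 (Cxcl2) to 0.38 (Traf1). With a log2 fold change of at least 0.5, 0 members and 0.677% of all genes were called. The groups did not overlap for 4 members, and for 10.3% of all genes. DESeq2, the method the study names, called 1 member, Tnfaip3, and 352 genes in all.

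The 3 members with the smallest p were all lower in Dnmt3a ΔIEC. Tnfaip3 (chromosome 10, 19000910 to 19015657 of GRCm38) was at 194, 211, 228 and 182 CPM in Dnmt3a fl/fl and at 151, 164, 149 and 172 in Dnmt3a ΔIEC. Every Dnmt3a ΔIEC library was below every Dnmt3a fl/fl one, and the log2 difference was -0.36 (standard error 0.0988, adjusted p = 0.178; 0.0425 by DESeq2). Rel (chromosome 11, 23736847 to 23770970) was at 34.4, 37.3, 43.3 and 31.6 CPM in Dnmt3a fl/fl and at 25.6, 28.6, 27.1 and 30.8 in Dnmt3a ΔIEC. Its groups did not overlap either (-0.39, standard error 0.113, adjusted p = 0.187). Nfkb2 (chromosome 19, 46304737 to 46312090) was at 106, 98.0, 112 and 97.1 CPM in Dnmt3a fl/fl and at 92.7, 92.8, 83.2 and 84.0 in Dnmt3a ΔIEC (-0.23, standard error 0.0842, adjusted p = 0.273). Rela also did not overlap between groups, at 50.0 to 62.5 CPM against 45.6 to 49.5 (-0.19). None of these 4 differences passed the correction in edgeR.

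For the other tested members the mouse groups overlapped. Nfkbia, the member with the highest level per kilobase in Dnmt3a fl/fl (206 CPM per kb), was at 258 to 412 CPM there and at 235 to 307 in Dnmt3a ΔIEC (log2 fold change -0.31, standard error 0.153). Birc3 was at 78.1 to 152 CPM against 86.9 to 104 (-0.15, standard error 0.184). The receptor gene Tnfrsf10b had 25.7, 18.4, 43.3 and 21.6 CPM in Dnmt3a fl/fl and 10.3 to 21.9 in Dnmt3a ΔIEC (-0.67, standard error 0.279, unadjusted p of 0.0359 in edgeR's quasi-likelihood test across all genes). Tab1 was higher, 0.25 (standard error 0.0965). The chemokine genes Cxcl1, Cxcl2 and Ccl20 had log2 fold changes of -0.40, -1.13 and -0.34 with standard errors of 0.341, 0.636 and 0.337, and each pair of groups overlapped. Cxcl2 had few reads: 16, 10, 39 and 8 in Dnmt3a fl/fl and 11, 8, 0 and 13 in Dnmt3a ΔIEC. Dnmt3a fl/fl replicate 3 was the highest of all mouse libraries for Tnfrsf10b, Nfkbia, Cxcl1, Cxcl2 and Ccl20. Cxcl3, at most 0.158 CPM in any library, was not tested. Hyal1 (0.04, standard error 0.230) shares 50.8% of its exon length with Nat6 on the same strand, so its counts are uncertain. Of 79 tested genes of the wider list, edgeR called 0, and 10 had an unadjusted p under 0.05.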

How the data were processed

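Gene counts deposited by the authors were used, 1 table per library. Per the labels, stranded total RNA libraries were sequenced from both ends. The authors trimmed reads (Trim Galore 0.4.4), aligned them with STAR 2.5.2b to GRCh38 or GRCm38 and counted them with featureCounts 1.5.2 (headers of the mouse tables: 1.6.4), by reverse strand for Caco-2 and without strand for mouse. The headers show no option that counts reads with several places, which bears on near-identical genes. Human identifiers were named from a table that held 98.1% of them.

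From these counts, edgeR 4.0.16 in R 4.3.3 was used: low-count filter, TMM, quasi-likelihood F test of 2 groups at a time, Benjamini-Hochberg over all genes tested, threshold 0.05. The standard error is the log2 fold change divided by the square root of F. Named by rule with every library were members past the threshold with a log2 fold change of at least 1 and a mean of 0.5 CPM (in a comparison with fewer than 3, the 3 largest past it, and in mouse the 3 smallest p). The subunits, IκB genes, TNF receptors, IκB kinase genes and chemokines were given by group means, ranges or log2 fold changes only. TNFAIP3, NFKB2, RELB, REL, NFKBIA, IKBKG and CXCL2 were given by library, BIRC2 by ranges, and other members singled out, after their values were seen. The members and lists were chosen with earlier results of these data known. Replicates differed by more than counting noise (chi-square per degree of freedom 1.83 to 5.10 in Caco-2 and 9.98 to 80.9 in mouse). Caco-2 replicates 1 and 2 ran on lane 5 and 3 and 4 on lane 6. Code was tested on simulated data. DESeq2 1.42.0, other size factors, filters, fits and left-out libraries were alternatives.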

Additional observations from a re-analysis of the deposited data

Results flagged for a closer look

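Between the isoform lines, edgeR's quasi-likelihood test called 37 of 45 members, where it called 68.5% of all genes. Given here are the 11 that differed by a log2 fold change of at least 1 or went in opposite directions from ΔDNMT3A. As log2 differences of DNMT3A1 against the DNMT3A2-labelled libraries, these were 1.88 for TNFRSF1B, 1.52 for NFKBIZ, 1.05 for CCL20, 0.99 for BIRC2, 0.77 for TRAF6 and 0.58 for NFKBIA. Lower in DNMT3A1 were CSF1 (-1.68), CXCL3 (-1.55), TNFRSF10A (-0.82), RIPK2 (-0.50) and TNFRSF10B (-0.17). In this comparison the 50 tested neighbours of BIRC2 and NFKBIA had medians of 0.796 and 0.635, with 44 and 42 of them higher. For the other genes named here the neighbour medians lay between -0.177 (CCL20) and 0.281 (TRAF6). The part of the neighbours in these differences was not tested.

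In 10 of 219 groups of 4 libraries, 1 library stood apart from the other 3, where chance alone gives about 11. In Caco-2, CXCL2 was at 0.478 CPM in ΔDNMT3A replicate 1 (0.964 to 0.980 in the others) and TNFRSF1B at 14.7 CPM in ΔDNMT3A replicate 3 (12.5 to 12.8). NFKBIE was at 11.1 CPM in DNMT3A2-labelled replicate 4 (8.91 to 8.93). WT replicate 3 stood apart for NFKBIZ at 28.2 CPM (26.5 to 26.7), for REL at 8.30 CPM (9.74 to 10.03) and for TAB2 at 38.9 CPM (42.2 to 42.8). In mouse, Ripk2 was at 7.11 CPM in Dnmt3a ΔIEC replicate 3 (10.9 to 11.2). Dnmt3a fl/fl replicate 2 had 93.8 CPM of Nfkb1 (111 to 112) and 86.0 CPM of Ripk1 (73.3 to 74.9), and Dnmt3a fl/fl replicate 3 had 62.5 CPM of Rela (50.0 to 51.95).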

How the results depend on the processing

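Of the counts recomputed under alternatives, 297 stayed within 1.5 times the reported count and 30 did not, and no named member changed sign. Most of the 30 came from also requiring a log2 fold change of at least 0.5. That left 8 members higher and 3 lower in ΔDNMT3A against WT (3652 of all genes), 2 and 9 in DNMT3A1 against ΔDNMT3A (3882), 2 and 10 in the DNMT3A2-labelled libraries against ΔDNMT3A (4627), 6 and 5 in DNMT3A1 against WT (4854), 5 and 6 in the DNMT3A2-labelled libraries against WT (4454), and 10 and 6 between the isoform lines (5391). It left 2 members restored in both lines, 0 in DNMT3A1 alone and 3 in the DNMT3A2-labelled libraries alone. The share of all genes restored was not counted under any alternative. Counts of members lower in DNMT3A1 against ΔDNMT3A and against WT within lane 6 were also among the 30. That lane holds a single DNMT3A1 library, so these counts are not given. In mouse, DESeq2 called 1 member lower (Tnfaip3) and 352 genes in all, and leaving out 1 library gave 45 to 126 genes (57, 55 and 61 without Dnmt3a fl/fl replicates 1, 3 and 4, and 57 and 45 without Dnmt3a ΔIEC replicates 2 and 3). The cause was not tested.

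Without 1 library, 24 to 25 members were higher and 7 to 8 lower in ΔDNMT3A against WT, where 9898 to 10235 of all genes were called. Besides the left-out libraries given above, CCL20 in ΔDNMT3A missed the threshold by DESeq2 (0.72, adjusted p = 0.0788) and within lane 6 (0.33, adjusted p = 0.522).

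With the replicate number as a block in the edgeR fit, 25 members were higher and 7 lower in ΔDNMT3A against WT. Of all genes called in that fit, 50.1% were higher. The block left 9 members restored in both lines. No pair of same-numbered libraries correlated above 0.1, the cut-off set for pairing (21 pairs, r from -0.0328 to 0.0553). By this rule the libraries were taken to share only a number. The median r was 0.0135 for same-numbered and -0.00428 for different-numbered pairs, and 8 of 15 libraries correlated best with one of their own number. Whether a weaker pairing exists was not tested. No paired analysis was possible for mouse because its replicate numbers follow accession order only. Depth limits CXCL1, CXCL8 and TNF, which had too few reads for a fold change.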

Other observations

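TNFSF15, which encodes the TNF family cytokine TL1A, was at 0.468 ± 0.140 CPM in ΔDNMT3A (SD, n = 4), 2.91 ± 0.257 in DNMT3A1 (SD, n = 3) and 1.13 ± 0.319 in the DNMT3A2-labelled libraries (SD, n = 4). TNFSF10 had its largest SD in DNMT3A1, where the 3 libraries ran from 4.48 to 15.6 CPM, and was at 0.431 ± 0.0717 CPM in the DNMT3A2-labelled libraries (SD, n = 4).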
